A study of Homo sapiens with 96 samples.

Results

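The transcripts lost within the first hour of a transcription block were measured in DMSO-pretreated A375 cells by comparing 3 libraries harvested after 1 h of triptolide with 3 libraries harvested at 0 h, which are 6 of the 96 libraries of the series. A375 is an established human melanoma line, and the full series crossed a pretreatment (DMSO, or MAPKi, that is the BRAF and MEK inhibitors vemurafenib and cobimetinib at 500 nM each) with vehicle, triptolide, cycloheximide or both, at 0, 1, 3 and 5 h. All 6 libraries came from cells kept for 18 h in DMSO, then given DMSO in place of cycloheximide and 25 µM triptolide (spelled tryptolide in the labels), so the 0 h cells had also received triptolide and were harvested at once. RNA was taken from the cytoplasmic fraction after lysis, 500 ng was used per library, and the reads were generated with QuantSeq, which primes on poly(A) tails and reads near transcript 3′ ends, so that a level counts transcript ends and does not grow with transcript length. The labels number the replicates but do not say whether they were separate cultures, so p-values measure only the spread between libraries, here pooled over all groups of the series, which may be technical. Each library started from a fixed amount of RNA, and fewer cells and less RNA per cell cannot be told apart.

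Triptolide blocks the start of RNA polymerase II transcription by acting on the XPB helicase of the general factor TFIIH. Once new synthesis stops, RNA levels fall largely by decay, so short-lived transcripts are among the first to be lost. The values below are changes in level, and decay rates were not computed. In many cell types these include immediate-early transcription factors, feedback inhibitors of kinase and NF-kB signalling, and unstable non-coding RNAs, and AU-rich stretches in 3′ untranslated regions (3′UTRs) are a known signal for rapid mRNA decay.

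The 6 libraries held between 4822912 and 11716435 counts, and 3 counts in a library corresponded to 0.265 to 0.639 CPM, that is counts scaled to a common library total. All 13 melanocyte lineage markers were detected, with summed levels of 1045 to 1191 CPM at 0 h and 1049 to 1152 CPM at 1 h. Of the keratinocyte markers, KRT5, KRT1, EPCAM and CDH1 were at 0, and the summed level of 102 to 137 CPM was nearly all KRT10. Summed fibroblast markers reached at most 5.75 CPM and summed blood and endothelial markers at most 1.67 CPM.

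After 1 h of triptolide, 66 of 14948 tested genes were lower (0.442% of all tested) and 3 were higher (0.0201%) at a Benjamini-Hochberg adjusted p under 0.05 in the edgeR quasi-likelihood test. Levels were scaled by TMM, which sets the typical gene to no change, so each value is a loss relative to the typical gene, and the median over all tested genes was -0.00 on the log2 scale. At an unadjusted p under 0.05, 704 genes (4.71%) were lower and 402 (2.69%) were higher. The 66 genes that fell had a median log2 change of -1.19, from -6.88 to -0.34, and 40 of them fell at least 2-fold. In 62 of the 66 all 1 h libraries lay below all 0 h libraries, as they did for 7.12% of all tested genes. At 0 h, 57 of the 66 had a mean of at least 5 CPM, and 54 of these 57 had no overlap between the times. Fitted on the 6 libraries alone, the same test made 26 calls in all. Leaving out replicate 1, 2 or 3 left 26, 37 and 27 calls in all. Of the 66 falls, 10 were called without each replicate in turn (MIR17HG, LINC01004, MIR222HG, DUSP10, SNHG12, PA2G4P4, KCNQ1OT1, FBXO22, LOC101927610 and LOC101929307). Of these 10, PA2G4P4, KCNQ1OT1, FBXO22 and LOC101929307 were not called once the change over 1 h of vehicle was subtracted. The smallest fall that was called shrank from 1.98 on the log2 scale at 1 to 5 CPM to 0.34 at 200 CPM and above, and none of the 2605 genes under 1 CPM at 0 h was called lower, so a slight loss of a rare transcript was not detectable at this depth.

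**Figure D1:**
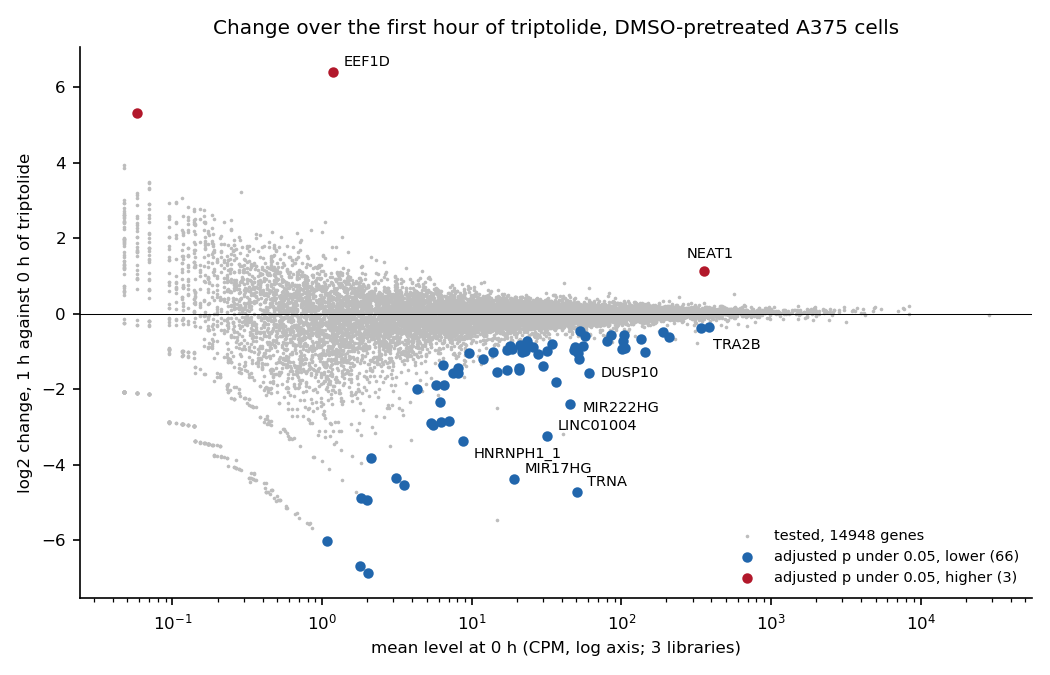
Change from 0 to 1 h of triptolide (log2, TMM scaling, y axis) against the mean level at 0 h (CPM, log axis) for the genes tested, with the genes called lower (blue) and higher (red) at adjusted p under 0.05. The 368 genes with no count at 0 h are not drawn. The 66 falls lie along the lower side of the cloud of all genes, and the smallest fall called is closer to 0 at higher levels.

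By annotation, protein-coding genes made up 28 of the 66 (42.4%) against 80.7% of all genes tested, long non-coding RNAs (lncRNAs) 23 (34.8%) against 12.0%, and pseudogenes 5 (7.58%) against 2.12%. Among genes with at least 5 CPM at 0 h, 20 of the 57 that fell (35.1%) were lncRNAs, against 3.07% of all genes at that level. The remaining entries were 1 microRNA precursor, 1 entry named TRNA and 8 names that matched no annotated gene.

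The steepest fall of a well-measured transcript was that of MIR17HG (chr13:91347686-91397592, plus strand, GRCh38), the spliced host transcript of the miR-17-92 cluster of microRNAs. MIR17HG stood at 22.8, 21.1 and 13.8 CPM at 0 h and at 0.708, 0.619 and 1.7 CPM at 1 h, from 80 to 161 counts per library at 0 h and 4 to 8 at 1 h. The lowest 0 h library was thus above the highest 1 h library, and the log2 change was -4.38 (SE 0.40, adjusted p = 2.2e-13, edgeR quasi-likelihood test). MIR222HG (chrX:45745210-45770274, minus strand), from which miR-221 and miR-222 are cut, had 51.3, 48.8 and 36.5 CPM at 0 h and 11.2, 7.34 and 7.88 CPM at 1 h. Its libraries were also separate, with a log2 change of -2.39 (SE 0.28, adjusted p = 5.9e-09, edgeR). MIR3142HG (chr5:160438594-160487426, plus strand), the host of miR-146a, a feedback regulator of NF-kB signalling, had 31.6, 29.3 and 29.4 CPM at 0 h and 11.9, 11 and 11.7 CPM at 1 h (log2 change -1.39, SE 0.29, adjusted p = 0.0029, edgeR). MIR3142HG had a log2 change of -1.22 over 1 h of vehicle as well (adjusted p = 0.052, edgeR), and the change with triptolide minus that with vehicle was -0.18 (SE 0.40), a difference that did not pass the test (adjusted p = 1, edgeR).

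The mature microRNAs cut from these transcripts are shown because they name what the lost hosts carry, and they were not measured by this poly(A)-primed assay. The sequences are those of RefSeq on GRCh38.p14, written 5′ to 3′ with the seed, bases 2 to 8, in capitals. In MIR17HG, miR-17-5p and miR-20a-5p share one seed and miR-19a-3p and miR-19b-3p share another, while miR-18a-5p and miR-92a-3p differ from both.
hsa-miR-17-5p (chr13:91350618-91350640, plus): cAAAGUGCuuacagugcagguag
hsa-miR-20a-5p (chr13:91351072-91351094, plus): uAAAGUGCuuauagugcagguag
hsa-miR-18a-5p (chr13:91350756-91350778, plus): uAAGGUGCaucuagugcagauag
hsa-miR-19a-3p (chr13:91350939-91350961, plus): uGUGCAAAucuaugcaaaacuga
hsa-miR-19b-3p (chr13:91351245-91351267, plus): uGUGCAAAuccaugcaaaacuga
hsa-miR-92a-3p (chr13:91351361-91351382, plus): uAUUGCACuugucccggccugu
In MIR222HG, both microRNAs carry the same seed.
hsa-miR-221-3p (chrX:45746180-45746202, minus): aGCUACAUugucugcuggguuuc
hsa-miR-222-3p (chrX:45747036-45747056, minus): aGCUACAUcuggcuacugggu
MIR3142HG carries miR-146a, and the coding gene VMP1, which also fell, spans miR-21.
hsa-miR-146a-5p (chr5:160485372-160485393, plus): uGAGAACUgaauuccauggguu
hsa-miR-21-5p (chr17:59841273-59841294, plus): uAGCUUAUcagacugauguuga

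Of the 45 genes that fell and had coordinates, 7 (15.6%) spanned an annotated microRNA on the same strand, against 4.96% of the 13196 tested genes with coordinates. Among lncRNAs the share was 5 of 14 (35.7%) against 36 of 930 (3.87%), and these 5 were MIR17HG, MIR222HG, MIR3142HG, GABPB1-AS1 and LINC00472. The 5 had means of 8.15 to 45.5 CPM at 0 h, while the 36 included hosts under 1 CPM, such as LINC00461 at 0.828 CPM. The shares are thus not matched for level, on which calls depended. The other lncRNA hosts were not called lower. MIR4435-2HG, at a mean of 234.0 CPM, had a log2 change of 0.11, CYTOR 0.05 and DANCR 0.01, and MIR193BHG had -1.18 but did not pass the test (adjusted p = 0.18, edgeR).

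LINC01004 (chr7:104950315-105013068, minus strand), a lncRNA, had the second steepest fall among well-measured genes that did not rest on 1 library. It stood at 36.1, 35.8 and 23.3 CPM at 0 h and at 3.01, 3.71 and 2.98 CPM at 1 h. GENCODE v44 draws it across the chromatin regulator gene KMT2E on the opposite strand, while RefSeq places it 23040 bases from KMT2E. The times did not overlap, and the log2 change was -3.25 (SE 0.24, adjusted p = 1.3e-17, edgeR). KCNQ1OT1 (chr11:2597308-2700003, minus strand), the imprinted antisense transcript of KCNQ1, fell from 140, 161 and 131 CPM to 82.8, 62.9 and 69.8 CPM (log2 change -1.01, SE 0.12, adjusted p = 6.6e-09, edgeR). It also fell over 1 h of vehicle, by 0.65 on the log2 scale (adjusted p = 0.0020, edgeR).

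Several further transcripts with an antisense, intronic or uncharacterised locus name were lower at 1 h, and 2 of those named next, LOC107986119 and LOC107985851, matched no annotated gene. LOC107986119, NFYC-AS1, LOC112543491 and LOC107985851 had log2 changes between -2.95 and -2.84, and LOC107986363 and PCF11-AS1 had -1.90 and -1.88. RUNX1-IT1, transcribed within the gene of the transcription factor RUNX1, fell from 15.4, 17.0 and 11.8 CPM to 5.49, 4.07 and 6.17 CPM (log2 change -1.53). GABPB1-AS1, antisense to GABPB1, fell from 36.3, 30.1 and 29.2 CPM to 14.2, 20.6 and 12.3 CPM (log2 change -0.99). The 0 h and 1 h libraries of all of these were separate. Strand use in counting is not given in the sources used here, so reads of an antisense gene and its partner cannot be told apart, and the same limit holds for ATP5MGL within CYB5R3 (log2 change -2.35).

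Among pseudogenes, PA2G4P4, a processed copy of the proliferation gene PA2G4, fell from 40.2, 36.2 and 33.9 CPM to 11.7, 9.20 and 10.9 CPM (log2 change -1.82, SE 0.23, adjusted p = 2.6e-08, edgeR). ACTG1P20 had a log2 change of -1.57, RPL23AP32 -1.07 and RPS14P3 -0.98. Their parent genes have near-identical sequence, so the counts of all 4 are uncertain. PA2G4P4 also lies within LINC00886 on the same strand. Over 1 h of vehicle its log2 change was -0.65 (adjusted p = 0.53, edgeR).

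**Figure D2:**
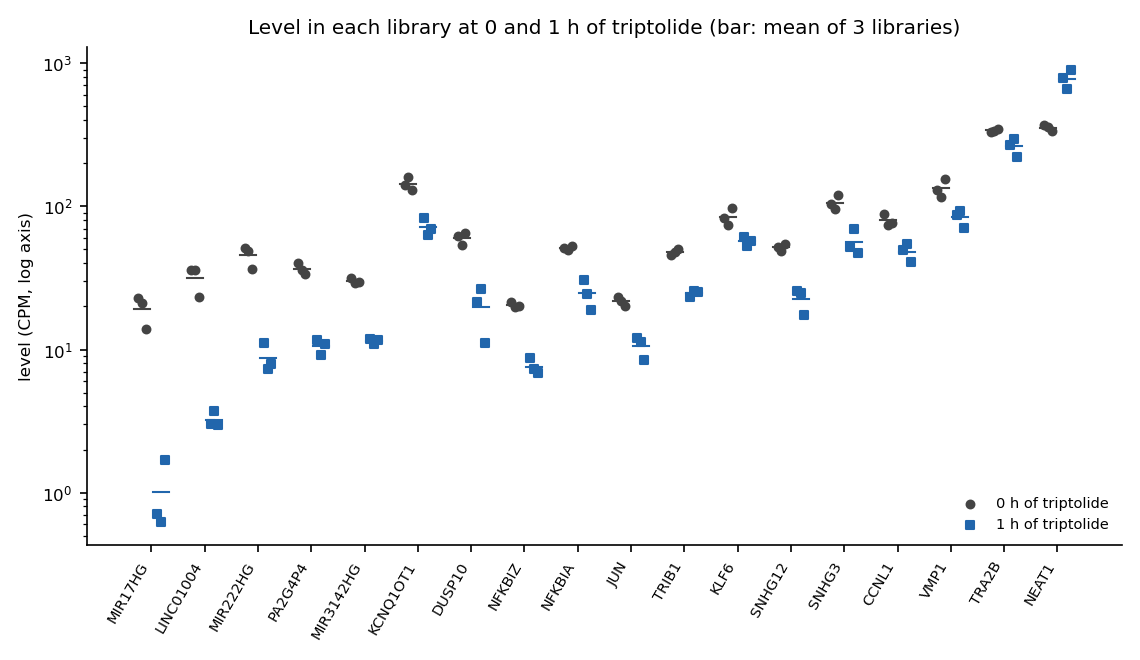
Level (CPM, log axis) of 18 named genes in each library at 0 h (circles) and 1 h (squares) of triptolide in DMSO-pretreated cells, with a bar at the mean of 3 libraries. The 1 h points of each of the 17 falls drawn lie below its 0 h points, and those of NEAT1 lie above.

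Among the called genes, the protein-coding ones had the smaller falls. The 26 with at least 5 CPM at 0 h had a median log2 change of -0.85, against -1.38 for the 20 lncRNAs. The fall needed for a call depended on the level, and the median called fall was -1.90 at 5 to 10 CPM and -0.79 at 50 to 200 CPM. Medians over called genes therefore cannot show whether the classes differ in decay. The steepest fall of an mRNA outside an overlapping gene was that of DUSP10, a phosphatase that switches off the stress kinases p38 and JNK. DUSP10 stood at 62.2, 53.6 and 65.4 CPM at 0 h and at 21.4, 26.5 and 11.1 CPM at 1 h, with no overlap (log2 change -1.57, SE 0.22, adjusted p = 1.4e-06, edgeR). It was the 1 gene of 24 tested in the list of ERK feedback and ETS genes that fell (4.17%, against 0.442% of all tested). DUSP6, the ERK phosphatase of that list, had 336, 267 and 352 CPM at 0 h and 200, 250 and 100 CPM at 1 h, a log2 change of -0.78 that did not pass the test (adjusted p = 0.11, edgeR).

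In the NF-kB list 2 of 18 tested genes fell (11.1%, against 0.442% of all tested). NFKBIZ, a nuclear IkB protein that steers a part of NF-kB target genes, went from 21.5, 19.9 and 20.2 CPM to 8.67, 7.34 and 6.81 CPM (log2 change -1.43, SE 0.30, adjusted p = 0.0029, edgeR). NFKBIA, the IkB-alpha inhibitor that holds NF-kB in the cytoplasm, went from 51.6, 49.8 and 52.6 CPM to 30.8, 24.4 and 18.9 CPM (log2 change -1.05, SE 0.17, adjusted p = 7.4e-05, edgeR). Both were separate between times.

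Of 31 tested AP-1 and other immediate-early genes, 2 fell (6.45%, against 0.442% of all tested), and the median log2 change of the list was -0.30. JUN, the AP-1 subunit, went from 23.2, 21.8 and 20.2 CPM to 12.0, 11.2 and 8.51 CPM (log2 change -1.02, SE 0.18, adjusted p = 0.00043, edgeR). KLF6, a zinc finger transcription factor, went from 83.2, 73.9 and 96.8 CPM to 61.2, 52.8 and 57.0 CPM (log2 change -0.57, SE 0.14, adjusted p = 0.031, edgeR). All 1 h libraries of both lay below those at 0 h. FOS, the partner of JUN in AP-1, was low, at 3.54, 6.07 and 4.15 CPM at 0 h and 2.30, 2.39 and 1.06 CPM at 1 h, and its log2 change of -1.12 did not pass the test (adjusted p = 0.39, edgeR). IER2 and PHLDA1 had log2 changes of -0.42 and -0.35 and did not pass the test either, nor did MYC, of the growth regulator list, at -0.86 (adjusted p = 0.87, edgeR).

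Of 22 tested stress response genes and alpha-arrestins, 2 fell (9.09%, against 0.442% of all tested). TRIB1, a pseudokinase that guides ubiquitin ligase COP1 to its substrates, went from 45.8, 48.2 and 50.2 CPM to 23.4, 25.5 and 25.3 CPM (log2 change -0.96, SE 0.21, adjusted p = 0.0054, edgeR). DDIT4, an inhibitor of mTORC1 signalling, had a log2 change of -0.88 (adjusted p = 0.015, edgeR). At 1 h 1 library was still at 39.8 CPM, and the others were at 21.8 and 17.9 CPM. Over 1 h of vehicle the log2 changes were -0.42 for TRIB1 and -0.62 for DDIT4. With the vehicle change subtracted they were -0.53 and -0.27, and neither gene was called. Among 19 tested mRNA decay adaptors, ZC3H12C, an endonuclease of the Regnase family, fell from 11.1, 9.42 and 8.30 CPM to 4.6, 4.86 and 4.47 CPM (log2 change -1.04, adjusted p = 0.018, edgeR). Its list fellow ZFP36L1, which binds AU-rich elements, had -0.45 (adjusted p = 0.33, edgeR). MCL1, whose protein protects from apoptosis, had -0.29 (adjusted p = 0.79, edgeR).

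A few further mRNAs are named here one by one, having been picked out after their values were seen, and no list of such genes was tested. CCNL1, a cyclin of splicing-linked kinases, went from 88.6, 74.7 and 76.4 CPM to 49.6, 54.7 and 40.7 CPM (log2 change -0.72, SE 0.13, adjusted p = 0.00067, edgeR). RSRP1, an arginine/serine-rich protein, had -0.86 and CLK1, a kinase of splicing factors, -0.83, the latter just inside the threshold (adjusted p = 0.0498, edgeR). TRA2B, a splicing factor, had the second smallest fall, from 333, 338 and 348 CPM to 271, 296 and 221 CPM (log2 change -0.37, adjusted p = 0.031, edgeR). ASPM, a spindle protein, had the smallest, from 385, 411 and 352 CPM to 341, 292 and 271 CPM (log2 change -0.34, adjusted p = 0.011, edgeR). In both, the libraries of the times were separate.

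Host genes of small nucleolar RNAs, whose spliced transcripts release these guides of ribosomal RNA modification from their introns, had 4 falls among 24 tested (16.7%, against 0.442% of all tested). SNHG12 went from 52.0, 49.0 and 54.5 CPM to 25.5, 24.7 and 17.5 CPM (log2 change -1.19, SE 0.20, adjusted p = 0.00012, edgeR). SNHG3 had a log2 change of -0.90, SNHG19 -0.57 and SNHG1 -0.48. The most abundant members that did not pass the test, SNHG29, SNHG25 and SNHG6, had log2 changes of 0.01, -0.03 and -0.08.

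Zinc finger (ZNF) mRNAs, the largest list, had 1 fall among 405 tested (0.247%, against 0.442% of all tested), that of ZNF680 at -1.56. At an unadjusted p under 0.05, 39 were lower and 4 were higher, and the median log2 change was -0.14. After 5 h, 290 of the 405 were lower at an adjusted p under 0.05 (edgeR), where 21.2% of all tested genes were. No member was called lower in the lists of ID, SMAD and Notch feedback genes (15 tested), decay enzymes (32), mitotic regulators (38) or Pol II subunits and general factors (63). Nor was any called lower among respiratory chain (68), glycolysis (19), proteasome (34) or lysosome genes (30). The same held for p53 targets, growth regulators, circadian, YAP and SRF, and collagen, laminin and integrin genes. These lists were not alike. With at least 5 CPM at 0 h, 10 of 12 ID, SMAD and Notch genes and 17 of 21 of the p53 list were below 0. For glycolysis genes it was 5 of 17, and for all tested genes 4848 of 9702. After 5 h, 13 of the 15 ID, SMAD and Notch genes were lower at an adjusted p under 0.05 (edgeR). Of 77 tested ribosomal protein genes none was called lower or higher, and their median log2 change was 0.06. GAPDH, of the glycolysis list, had 0.07.

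**Figure D3:**
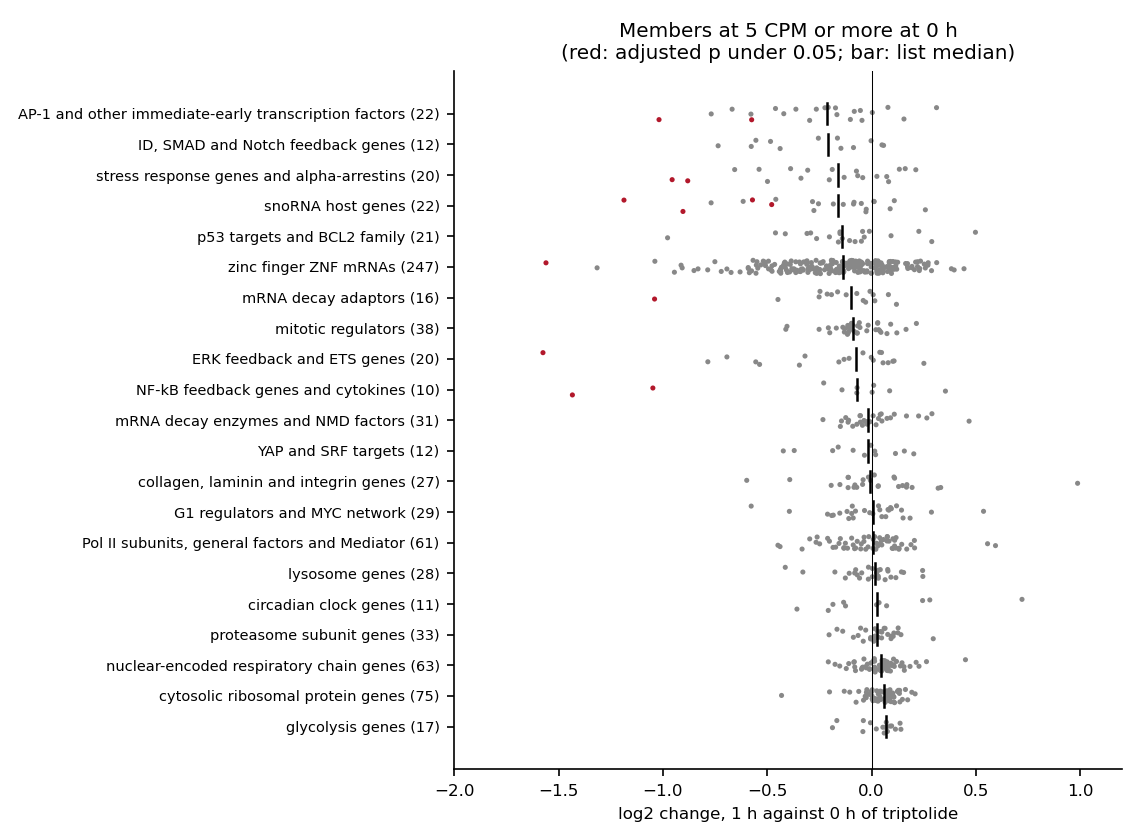
Log2 change from 0 to 1 h of triptolide (x axis, TMM scaling) for the tested genes of each list, with 1 point per gene with at least 5 CPM at 0 h and a bar at the median. Genes called lower are in red, and points outside the axis, none of which passed the test, are not drawn.

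The 3′UTRs of the falling mRNAs were compared with those of all tested mRNAs, taking 1 transcript per gene from GENCODE v44. The median 3′UTR was 1284 bases in the 26 coding genes that fell and had one, against 1457 in 11553 tested genes, and the median A+T content was 65.1% against 58.4%. The core AU pentamer ATTTA, searched on the sense strand, was present in 25 of the 26 (96.2%) and in 77.0% of all tested 3′UTRs. Among tested 3′UTRs of 728 to 2954 bases (n = 5315), the middle range of the 26, it was in 86.0%. The longer TATTTAT was present in 46.2% against 38.5% overall and 37.9% in that range. The nonamer TTATTTATT, which contains it, was in 7.69% against 10.3%. The Pumilio motif TGTANATA was in 50% against 32.1% overall and 30.8% in that range. The 26 themselves ran from 169 to 9409 bases, so these shares are not matched for length. KLHL28, ZC3H12C, EPM2AIP1, FBXO22, RBM12B, KLF6 and TRA2B, which hold TATTTAT, had 3′UTRs longer than the range. The genes that fell had a median of 5 exons against 9, and a median G+C share at the last position of codons of 48.7% against 57.6%. These are descriptions of 26 genes, with no test. Start sites with a divergent gene within 1000 bases were as common among falling genes (11 of 37, 29.7%) as among all (29.3%).

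The sites are shown for 6 of the mRNAs that fell, chosen after their values were seen for their roles as regulators. Each line gives 29 bases of the 3′UTR around a site, 5′ to 3′ on the transcript strand as DNA letters. GRCh38 coordinates are given, and the motif is in capitals. The site is the first TTATTTATT where the 3′UTR holds one, as in ZC3H12C, and otherwise the first TATTTAT.
NFKBIA (chr14:35401699-35401727, minus): accacattttaTATTTATtgtgcttcgag
JUN (chr1:58780819-58780847, minus): ttgcttatgaaTATTTATaacagcattct
KLF6 (chr10:3778341-3778369, minus): tatgtttctctTATTTATgccttgaggac
ZC3H12C (chr11:110170157-110170185, plus): tttacacccaTTATTTATTagagatattt
MYLIP (chr6:16148130-16148158, plus): attccaagaggTATTTATtttttcacttg
TRA2B (chr3:185915973-185916001, minus): agaatttgtagTATTTATatataaagttg
NFKBIA and JUN fell about as far as each other, while TRA2B, with the same heptamer, fell least of the 6. DUSP10 and NFKBIZ, which fell farther than these 6, held 3 ATTTA pentamers each in their 3′UTRs and no TATTTAT.

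NEAT1 (chr11:65422774-65445540, plus strand), the lncRNA scaffold of nuclear paraspeckles, was the 1 well-measured gene that rose. It had 369, 357 and 336 CPM at 0 h and 784, 661 and 903 CPM at 1 h in these cytoplasmic extracts. The libraries did not overlap, and the log2 change was 1.14 (SE 0.14, adjusted p = 5.9e-09, edgeR). The level returned to 589, 492 and 560 CPM at 3 h and to 356, 328 and 364 CPM at 5 h. Over 1 h of vehicle the log2 change of NEAT1 was 0.13. MALAT1, another abundant nuclear lncRNA, had a log2 change of 0.12 with triptolide and did not pass the test (adjusted p = 0.68, edgeR). It stood at 5601, 5308 and 5452 CPM at 0 h and at 6110, 5870 and 5759 CPM at 1 h. How far these extracts were free of nuclear RNA was not tested.

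Calls that rested on 1 library stood apart from the rest. TRNA had 1.98, 147 and 1.90 CPM at 0 h and HNRNPH1_1 had 1.7, 23.7 and 1.04 CPM, so that replicate 2 made both falls, and without it their log2 changes were -0.42 and -0.69. EEF1D was called higher because 1 library at 1 h held 1447 counts and the other five between 5 and 10. LOC105369177, also called higher, had 1 count in all at 0 h and 10, 25 and 24 counts at 1 h. LOC101928059 had 17, 4 and 0 counts at 0 h and none at 1 h, so its times overlapped and 1 library held most of its counts. Of the low-level falls, LOC107984617 and MIR301A had no count at 1 h. Set against a floor of 3 counts per library, their means were at least 4.22-fold and 3.74-fold lower. In 33 of the 54 well-measured, non-overlapping falls, replicate 3 was the lowest library at 1 h.

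Later times showed how far the early losses went on. Shares left were computed on a scaling by 36 stable genes, which were chosen because their CPM rose at 3 and 5 h of triptolide. The 3 h and 5 h libraries share their 0 h controls with the comparison above, so shares left are given as values only. Over the 54 falls the median share left was 46.9% at 1 h (5.02 to 75.5%), 21.1% at 3 h and 15.9% at 5 h (0.575 to 62.0%). At 5 h, 19 of the 54 were under 10% of their 0 h level, 20 were at 10 to 25%, 11 at 25 to 50%, and VMP1, SNHG19, ARMCX3 and TRA2B were above 50%. By CPM on TMM scaling, all 5 h libraries lay below all 1 h libraries in 33 of the 54. They lay above in 4 (LINC01004, ATP5MGL, VMP1 and SNHG19). The 54 were chosen for their fall at 1 h, and the share of all tested genes with such separation was not computed. Of all tested genes, 21.2% were called lower at 5 h than at 0 h.

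The falls followed different courses. MIR222HG went from 18.5% ± 4.67 (SD, n = 3) at 1 h to 0.584% ± 0.520 at 3 h, DUSP10 from 31.1% ± 12.0 to 6.82% ± 3.08, NFKBIA from 46.2% ± 11.5 to 4.72% ± 1.59 and JUN from 46.6% ± 8.14 to 4.44% ± 2.51. VMP1, a protein of autophagosome formation, fell early and changed less after that, at 59.6% ± 7.64, 56.1% ± 10.7 and 53.5% ± 1.59 at 1, 3 and 5 h. SNHG3 went on falling slowly on this scaling, at 50.6% ± 9.22, 45.2% ± 4.90 and 36.3% ± 1.78. By TMM its log2 changes from 0 h showed no such decline, at -0.90, -0.79 and -0.94 at 1, 3 and 5 h. Those of VMP1 by TMM were -0.68, -0.48 and -0.38, so the later course of these genes depended on the scaling. LINC01004 rose again after its loss, from 9.71% ± 1.02 at 1 h to 32% ± 2.86 at 3 h, with 12.1, 12.0 and 15.3 CPM at 3 h, and was at 19.0% ± 3.48 at 5 h. All 3 h libraries lay above all 1 h libraries in LINC01004, ATP5MGL and ARMCX3.

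**Figure D4:**
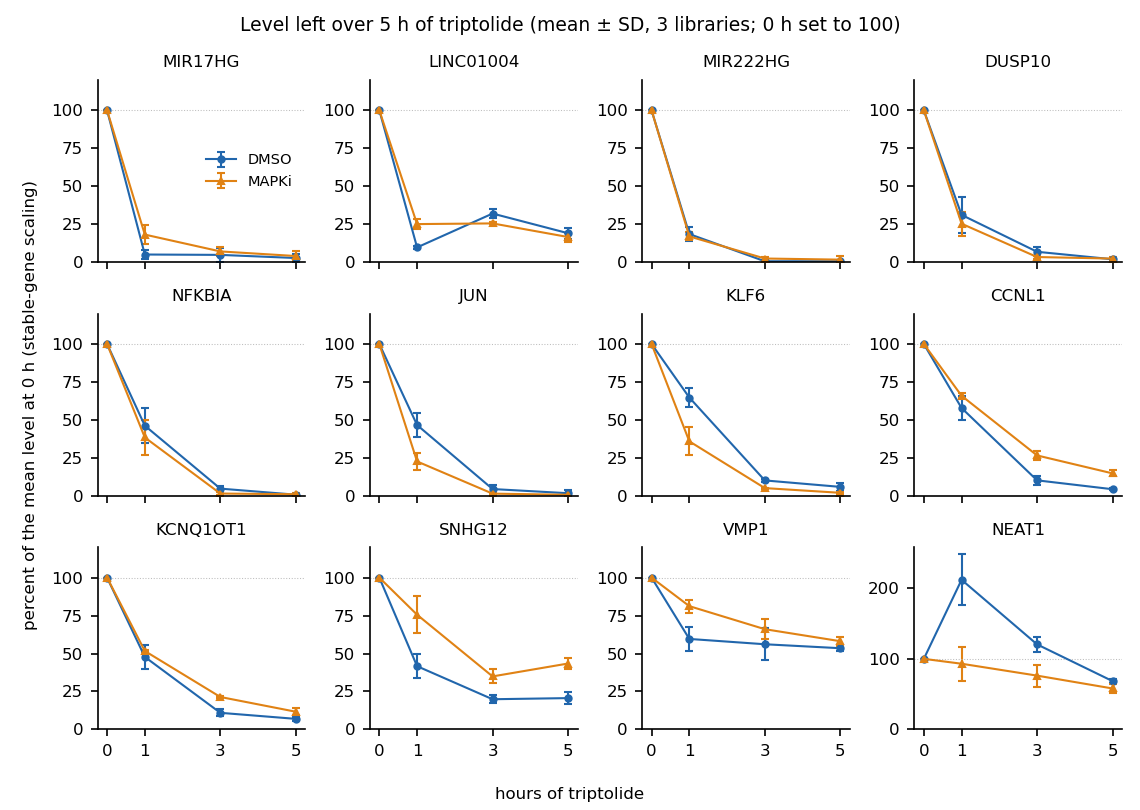
Share of the 0 h level left (percent, stable-gene scaling, y axis) over hours of triptolide (x axis) for 12 named genes in DMSO-pretreated and MAPKi-pretreated cells, as the mean of 3 libraries with SD, with 0 h set to 100. In DMSO-pretreated cells MIR222HG and NFKBIA are lower at 3 h than at 1 h, VMP1 stays near its 1 h level, LINC01004 is higher at 3 h than at 1 h, and NEAT1 peaks at 1 h.

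The typical gene itself moved little in the first hour. On stable-gene scaling the median share left over genes was 96.1, 92.9 and 91.5% in the 3 libraries at 1 h, a mean of 93.5% ± 2.34 (SD, n = 3), against 99.4% ± 1.95 at 0 h. The 1 h libraries lay below those at 0 h, and the two-sided exact permutation test gave p = 0.1, the smallest that 3 against 3 libraries allow. Each 0 h library is part of the mean it is divided by and the 1 h libraries are not, so the shares at 0 and 1 h are not measured alike. On the same scaling the median log2 change over all tested genes was -0.065 over 1 h of triptolide and -0.083 over 1 h of vehicle. The shift of the typical gene was thus no larger with triptolide than with vehicle. Scaled by mitochondrial rRNA the share was 98.1% and the groups overlapped (exact permutation p = 1).

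The background was measured the same way in vehicle, in 6 libraries that share none with the triptolide arm. Over 1 h of vehicle 2 genes were lower (0.0134% of all tested) and 3 were higher (0.0201%). These were KCNQ1OT1 at -0.65 and MIRLET7BHG at -1.71, and FOS at 1.58, NFKBIA at 1.49 and SRSF10 at 0.31. Of the 66 genes lost with triptolide, KCNQ1OT1 was called lower in vehicle and NFKBIA higher, 38 had a change below 0, and the median was -0.06. NFKBIA stood at 52.5, 48.4 and 48.9 CPM at 0 h of vehicle and at 130, 137 and 152 CPM at 1 h, and MIR17HG had 19.5, 25.2 and 19.9 CPM and then 39.7, 38.7 and 33.1 CPM. For these genes the level at 1 h of triptolide was therefore farther below that at 1 h of vehicle than below that at 0 h. In MIR3142HG, RPL23AP32, KCNQ1OT1, DDIT4 and FBXO22 the vehicle change was at least 0.5 times the triptolide change. When the vehicle change was subtracted, 37 genes were lower (0.248%) in edgeR, 23 of them among the 66, including MIR17HG, LINC01004, MIR222HG, DUSP10, NFKBIA, JUN, SNHG12 and CCNL1.

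The same measure was taken in MAPKi-pretreated cells, where 100 genes were lower (0.669%) and 20 higher (0.134%) after 1 h of triptolide. Without replicate 1, 2 or 3 the total was 30, 35 and 926 calls, so these counts depend on single libraries, and on stable-gene scaling 407 genes were lower and 5 higher. Of the 66 genes, 24 were called lower there (36.4% of the 66 and 24% of the 100), 60 had a change below 0, and the median was -0.97. JUN had -1.97, TRIB1 -2.04, KLF6 -1.30, DUSP10 -1.74 and MIR222HG -2.21, and all 5 passed the test in edgeR. SNHG12 had -0.21 and did not pass (adjusted p = 0.78, edgeR). Levels at 0 h differed between pretreatments, with JUN at 233, 202 and 248 CPM and MIR17HG at 2.54, 2.35 and 6.69 CPM in MAPKi. The difference between pretreatments itself was called for 2 genes (0.0134%), NEAT1 at -1.05 (SE 0.19, adjusted p = 0.0026, edgeR) and the single-library case EEF1D. The call of NEAT1 was lost without replicate 2 (adjusted p = 0.47, edgeR) and without replicate 3 (adjusted p = 0.090, edgeR). NEAT1 in MAPKi cells stood at 1928, 1650 and 1614 CPM at 0 h and at 2315, 1426 and 1782 CPM at 1 h, and these overlapped. For LINC01004 the difference was 1.44 (adjusted p = 0.058, edgeR) and for JUN -0.95 (adjusted p = 0.19, edgeR), and neither passed.

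With cycloheximide, which halts translation, added before triptolide, 41 genes were lower (0.274%) and 2 higher (0.0134%) after 1 h. Of the 66 genes, 25 were among the 41 (37.9% of the 66 and 61.0% of the 41), and 63 had a change below 0. Among non-coding transcripts, MIR17HG fell here too by 3.18, LINC01004 by 3.07 and MIR222HG by 2.35 on the log2 scale, each past the test in edgeR. Several mRNAs had values near 0, with NFKBIA at -0.25, JUN at -0.12, KLF6 at 0.05 and CCNL1 at -0.02, and none of these 4 passed. The median over the 26 coding genes was -0.33 with cycloheximide and -0.85 without, and over the 20 lncRNAs -0.996 and -1.38, where the genes had been chosen for their fall without cycloheximide. The difference itself was called for no gene in edgeR, with 264 genes lower (1.77%) and 294 higher (1.97%) at an unadjusted p under 0.05, and the DESeq2 Wald test called 1. That gene was TRA2B, with a difference of 0.63 (SE 0.13, adjusted p = 0.081, edgeR), at 338, 342 and 352 CPM at 0 h and 410, 397 and 425 CPM at 1 h with both inhibitors.

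**Figure D5:**
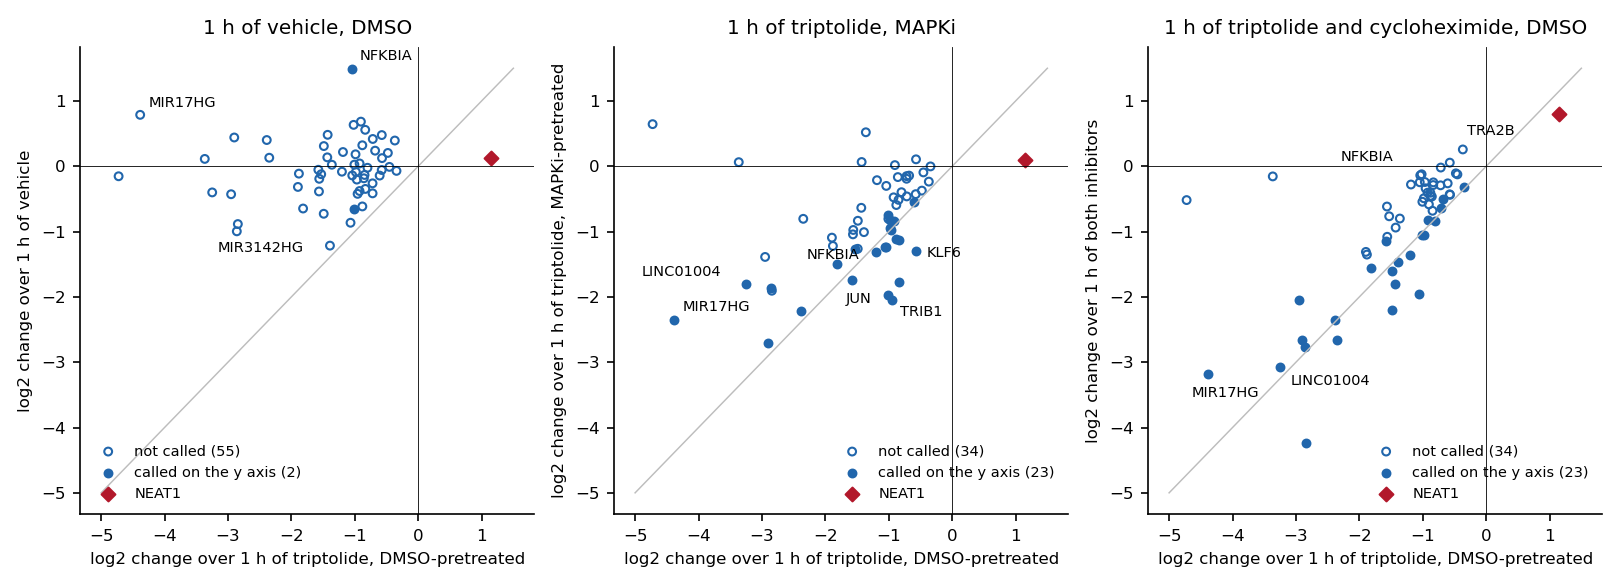
Log2 change over 1 h of triptolide in DMSO-pretreated cells (x axis) against that over 1 h of vehicle, of triptolide in MAPKi-pretreated cells, and of triptolide with cycloheximide (y axes), for NEAT1 and the 57 falls with at least 5 CPM at 0 h, filled where called on the y axis, with a line of equal change. Values lie on both sides of 0 in vehicle and below 0 in 51 and 55 of the 57 genes in the other panels.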

How the data were processed

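Libraries were prepared from cytoplasmic RNA of A375 cells with a QuantSeq 3′ mRNA kit. The authors trimmed reads (fastp 0.20.1), mapped them to GRCh38.p13 (HISAT2 2.2.1) and counted them on genes (HTSeq 0.13.5), and deposited raw counts per gene for 96 libraries and 44659 entries. Strand use in counting is not given in the sources used here, no molecular identifiers are described, and spike-in counts were not used here. Floors therefore cover counting error only.

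Counts as deposited were tested with edgeR 4.0.16 (R 4.3.3). Genes were kept by filterByExpr over the 32 groups, which left 14948, libraries were scaled by TMM, and all 96 libraries entered the same quasi-likelihood model, with a mean for each group. Tests were two-sided, with Benjamini-Hochberg adjustment over all tested genes and calls at an adjusted p under 0.05. Shares left used DESeq2 1.42.0 median-of-ratios factors over 36 genes, called stable, adapted from the study's methods. Their CPM was higher at 3 and at 5 h of triptolide than at 0 h of vehicle in every replicate of both pretreatments. The study's methods name 3 or 5 h. Scaling on genes whose CPM rose lowers the shares left of the other genes. On simulated counts of 14579 genes in 24 libraries, 86% of genes lowered by 1 on the log2 scale and 100% of those lowered by 2 were recovered. There were 8 false calls. The counts were drawn from the fitted dispersions, with 1 mean per gene in all groups apart from the lowered genes. Outlying single libraries, as seen in the real data, were not simulated, so recovery in the real data may be lower. All lowered genes had at least 5 CPM at 0 h, so recovery below that level was not measured. The model of the real data pooled 96 libraries. Python 3.11.15, pandas 2.3.3, numpy 2.4.6 and matplotlib 3.10.9 were used for tables and plots.

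Names were matched to GENCODE v44 by symbol (27026 matched, 289 were ambiguous and 17344 had no match), and microRNAs and start sites to RefSeq GRCh38.p14. Named genes were the 15 largest falls and up to 5 largest rises among called, non-overlapping genes with a mean of at least 5 CPM at 0 h (falls) or 1 h (rises), then called and abundant members of each list. Genes named on other grounds are described as chosen after their values were seen, and this also applies to KCNQ1OT1, VMP1, SNHG3, MYLIP, ASPM, MALAT1, the pseudogenes other than PA2G4P4 and ACTG1P20, and the hosts of microRNAs other than MIR17HG and MIR222HG. The genes and lists were chosen with earlier results of these data known. Alternatives covered scaling, the filter, the test, leaving out each replicate, a replicate block and the vehicle arm.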

Additional observations from a re-analysis of the deposited data

Results flagged for a closer look

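A test of the difference between pretreatments called 2 genes for the first hour of triptolide. NEAT1 rose in DMSO-pretreated cells and had a log2 change of 0.09 in MAPKi-pretreated cells, a difference of -1.05 (SE 0.19, adjusted p = 0.0026, edgeR quasi-likelihood test). Its level at 0 h was 1614 to 1928 CPM in the MAPKi libraries and 336 to 369 CPM in the DMSO libraries. For EEF1D the difference was -12.8, and it rested on 1 library in each pretreatment, at 380 CPM at 0 h of MAPKi and 308 CPM at 1 h of DMSO, while every other library of these groups was at 2.30 CPM or below. The causes were not tested.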

How the results depend on the processing

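Of the 66 genes called lower, 65 stayed below 0 under all 14 alternatives, TRNA being the exception at 0.0802 against vehicle at 1 h. Under all 14, 6 remained called (LOC101927610, MIR17HG, LINC01004, MIR222HG, DUSP10 and SNHG12), and 42 remained called under every scaling. The total of 69 calls was 109 without a filter on low counts, which tests more genes, 39 after subtraction of the vehicle change and 103 with the DESeq2 Wald test. It was 26 from the 6 libraries alone and 26 to 37 with 1 replicate left out, settings that use fewer samples by construction. The replicate numbers were not taken to pair the samples. Correlations of same-numbered deviations were 0.017, -0.41 and -0.36, those between replicates 2 and 3 across the times were 0.37 and 0.41, and a replicate block gave 82 calls, with all 66 falls among them. The rise of NEAT1 was called under every alternative.

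For vehicle (5 calls), the count was 13 with DESeq2 size factors, 34 without a filter, 13 with a replicate block, 21 with DESeq2 and 1 to 4 with 1 replicate left out. The split of lower and higher calls was 2 and 3 by TMM and 4 and 9 with DESeq2 size factors. For MAPKi (120 calls) it was 412 on stable-gene scaling (407 lower and 5 higher, with a median shift of -0.17 on the log2 scale), 399 without a filter, 185 with DESeq2 and 30 to 926 with 1 replicate left out, the highest without replicate 3. For the difference between pretreatments (2 calls) it was 79 without a filter, 6 with DESeq2 and 0 to 2 with 1 replicate left out, and the NEAT1 difference lost its call without replicate 2 (adjusted p = 0.47, edgeR) and replicate 3 (adjusted p = 0.090, edgeR). For the difference with cycloheximide (0 calls) it was 12 without a filter, 1 with DESeq2 size factors, 1 with DESeq2 and 1 with a replicate block, that 1 being TRA2B. The median share left was 98.1% on mitochondrial rRNA scaling. With 1 replicate left out, EEF1D ran from -0.48 to 7.18 and GAPDH from -0.039 to 0.14, both turning below 0 without replicate 3. Where no value shows it, the cause was not tested. The smallest fall called at 1 to 5 CPM was 1.98 on the log2 scale.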
